A study of Rattus rattus with 8 samples.

Results

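The epithelial keratins Krt1, Krt5, Krt8, Krt10, Krt14, Krt15, Krt17, Krt18 and Krt19 were followed in rat hair follicles after exposure to a simulated blast. They were found as the probes whose RefSeq accession equals that of a listed keratin, which gave 9 of the 26997 different target names on the array, with 1 probe for each keratin. The animals were adult male Sprague-Dawley rats, which were anaesthetized with isoflurane and placed in a shock tube with the head in the test area. Whisker follicles of each rat were pulled and pooled, and the RNA of each rat was hybridized to 1 one-colour array. The 3 sham control rats (C1, C2 and C3) are at 0 kPa in the labels. The 5 blast rats were exposed at 145 kPa (M2 and M3), 175 kPa (H1) and 200 kPa (XH1 and XH3). Rats were killed after a shorter or a longer observation period, and which rat had which period was not known. The period could therefore not be taken into account, and it may differ between the groups or pressures compared. The labels name the species as Rattus rattus, while Sprague-Dawley rats are Rattus norvegicus.

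Keratins are the intermediate filament proteins of epithelial cells, and a filament forms only when a type I keratin pairs with a type II keratin. Krt5 and Krt14 are the pair of the basal layer of the epidermis and of the outer root sheath, the sleeve of epithelium around the hair, and cells that leave the basal layer switch to Krt1 and Krt10 as they begin to cornify. Krt15 and Krt19 are known from the bulge, the part of the outer root sheath that holds the follicle's stem cells, Krt17 from the outer root sheath and from stressed or wounded skin, and Krt8 and Krt18 from simple epithelia and, in skin, Merkel cells.

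The first comparison asked whether keratin mRNA levels differed between blast and sham control follicles. The mean level was lower in the blast rats for 8 of the 9 keratins and higher for Krt8, while 49.0% of the 30366 probes tested had a lower mean in the blast rats. This count depended on the setting, with 6 lower and 3 higher under 75th percentile scaling (Krt5 and Krt17 turned higher), with the row of arrays on the slide as a block, and without C1, C2 or XH3, and with 2 lower and 7 higher within row 2 of the slide. The median difference, blast minus sham control, was -0.47 over the keratins and 0.0045 over all probes on the log2 scale, where 1 unit is a 2-fold difference. The median over the keratins was -0.19 without C1, -0.25 without C2, -1.16 without C3, -0.77 without H1, -0.28 without XH3, -0.26 with the row as a block and -0.17 with the arrays weighted by quality. It turned to 0.11 within row 2 of the slide, which held a single sham control rat. Over all 8 rats, none of the keratin differences stood out from the spread between rats. In limma, 0 of the 9 keratins had an unadjusted p under 0.05, against 2.80% of all probes (1.18% higher and 1.62% lower in blast rats), and 0 keratins and 0 probes had an adjusted p under 0.05. The methods' analysis of variance likewise gave 0 keratins under an unadjusted 0.05. The adjusted p was 0.9999 for each keratin. Blast and sham control rats overlapped for every keratin, whereas they did not overlap in 2.0% of the probes with a value in all 8 rats. With 3 and 5 rats the smallest p that the exact permutation test can give is 0.0179, and the lowest among the keratins was 0.196, for Krt15. The follicles were measured whole, so fewer cells of a type and less RNA per cell cannot be told apart.

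**Figure D1:**
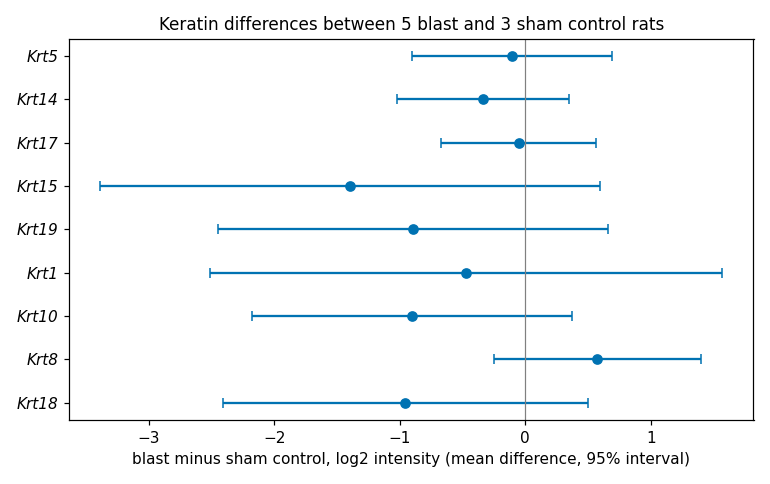
Mean difference in log2 intensity between 5 blast rats and 3 sham control rats for each keratin (points), with 95% intervals from limma (bars), where values below 0 are lower in blast rats. Every interval includes 0, from the narrowest, that of Krt17 (-0.67 to 0.57), to the widest, that of Krt1 (-2.52 to 1.57).

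Krt5 (NM_183333), the type II keratin of basal keratinocytes, had a log2 intensity of 15.91, 15.72 and 15.04 in the sham controls (C1, C2 and C3) and of 15.42, 15.46, 16.24, 15.37 and 14.76 in the blast rats M2, M3, H1, XH1 and XH3. The highest and the lowest rat were both blast rats, and the sham control rats lay between them. The mean difference of -0.10 (standard error 0.34) had a 95% interval of -0.90 to 0.69 in limma. Its direction turned to 0.033 when the arrays were scaled to their 75th percentile. Krt14 (NM_001008751), the type I partner of Krt5, was at 17.75, 17.63 and 17.00 in C1, C2 and C3 and at 16.56, 17.18, 17.72, 17.26 and 16.87 in M2, M3, H1, XH1 and XH3. M2 and XH3 were below all sham control rats, whereas H1 was nearly level with C1, the highest rat. The mean was lower in the blast rats by a log2 difference of -0.34 (95% interval -1.02 to 0.34, exact permutation p = 0.304). Krt17 (NM_212545), a type I keratin of the outer root sheath that is induced in wounded epidermis, was at 16.87, 16.69 and 16.04 in C1, C2 and C3 and at 16.38, 16.32, 16.99, 16.65 and 16.07 in M2, M3, H1, XH1 and XH3. Only H1 lay outside the sham control range, just above C1. The difference of -0.052 (standard error 0.26) corresponds to a fold of 0.965, with an interval from 0.629-fold to 1.48-fold, and it turned to 0.059 with 75th percentile scaling. Krt5, Krt14 and Krt17 were well above background on all 8 arrays, so that the defining keratins of the outer root sheath were present in every sample labelled hair follicle.

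Krt15 (NM_001004022), a type I keratin that marks bulge stem cells and basal cells, had the largest mean difference among the 9 keratins with all rats included. Its log2 intensity was 17.38, 15.17 and 14.95 in C1, C2 and C3 and 15.28, 14.32, 16.10, 13.45 and 13.05 in M2, M3, H1, XH1 and XH3. C1 stood far above every other rat, M3, XH1 and XH3 were below all sham control rats, and M2 and H1 lay within the sham control range. The lowest rat, XH3, and the highest, C1, differed 20.1-fold. The sham control mean was 15.84 ± 1.34 (SD, n = 3) and the blast mean 14.44 ± 1.27 (SD, n = 5), which is 2.63-fold lower after blast. The log2 difference of -1.39 had a 95% interval of -3.39 to 0.60 (exact permutation p = 0.196). Without C1 it was -0.62, smaller in size than the differences of Krt1 (-0.77) and Krt8 (0.73) without C1. Without H1 the Krt15 difference was -1.81 (unadjusted p = 0.0562, adjusted p = 0.913 in limma). Krt19 (NM_199498), the smallest keratin and another bulge marker, was at 8.27, 5.88 and 5.53 in C1, C2 and C3 and at 5.58, 6.66, 5.83, 5.05 and 5.20 in M2, M3, H1, XH1 and XH3. C1 was again the highest rat, followed by the blast rat M3, and both rats at 200 kPa were below all sham control rats. The mean difference of -0.90 (standard error 0.67, exact permutation p = 0.268) was -0.041 without C1 and -0.53 with normexp background correction.

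Krt1 (NM_001008802), the type II keratin of the spinous and granular layers, was measured at 7.48, 10.05 and 6.70 in C1, C2 and C3 and at 7.41, 8.60, 8.78, 6.72 and 6.52 in M2, M3, H1, XH1 and XH3. C2 was the highest rat, above H1 and M3, and only XH3 lay below the sham control range. The difference of -0.47 had the widest interval of the keratins, -2.52 to 1.57, and it turned to 0.51 without C2. Krt10 (NM_001008804), the type I partner of Krt1, had levels of 8.70, 8.47 and 6.54 in C1, C2 and C3 and of 6.50, 6.62, 6.90, 7.90 and 7.07 in M2, M3, H1, XH1 and XH3. C1 and C2 were above all 5 blast rats, but C3 was lower than all blast rats except M2. The means, 7.90 ± 1.18 (SD, n = 3) and 7.0 ± 0.55 (SD, n = 5), gave a difference of -0.90 (95% interval -2.18 to 0.37, exact permutation p = 0.214). It depended on single sham control rats, at -0.51 without C1, -0.62 without C2 and -1.58 without C3 (unadjusted p = 0.00539, adjusted p = 0.9997 in limma, where 3.5% of all probes had an unadjusted p under 0.05). With the arrays weighted by quality, which gave C3 the highest weight, the Krt10 difference was -0.0045.

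Krt8 (NM_199370), a type II keratin of simple epithelia, was the keratin with a higher mean in the blast rats. Its log2 intensity was 6.63, 5.91 and 6.41 in C1, C2 and C3 and 7.45, 6.56, 7.59, 6.48 and 6.36 in M2, M3, H1, XH1 and XH3. M2 and H1 were above all sham control rats, and M3, XH1 and XH3 lay among them. The mean was 1.49-fold higher after blast, with an interval from 0.839-fold to 2.64-fold (exact permutation p = 0.214). Krt18 (NM_053976), the type I partner of Krt8, was at 7.91, 5.75 and 5.87 in C1, C2 and C3 and at 5.55, 4.39, 5.37, 6.12 and 6.35 in M2, M3, H1, XH1 and XH3. C1 was the highest rat, the blast rats M2, M3 and H1 were below all sham control rats, and XH1 and XH3 were above C2 and C3. Krt18 was well above background on 7 of the 8 arrays, the exception being M3, its lowest value. The difference of -0.96 (95% interval -2.41 to 0.50) was -0.26 without C1, -0.17 with the arrays weighted by quality and -0.50 with normexp background correction.

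**Figure D2:**
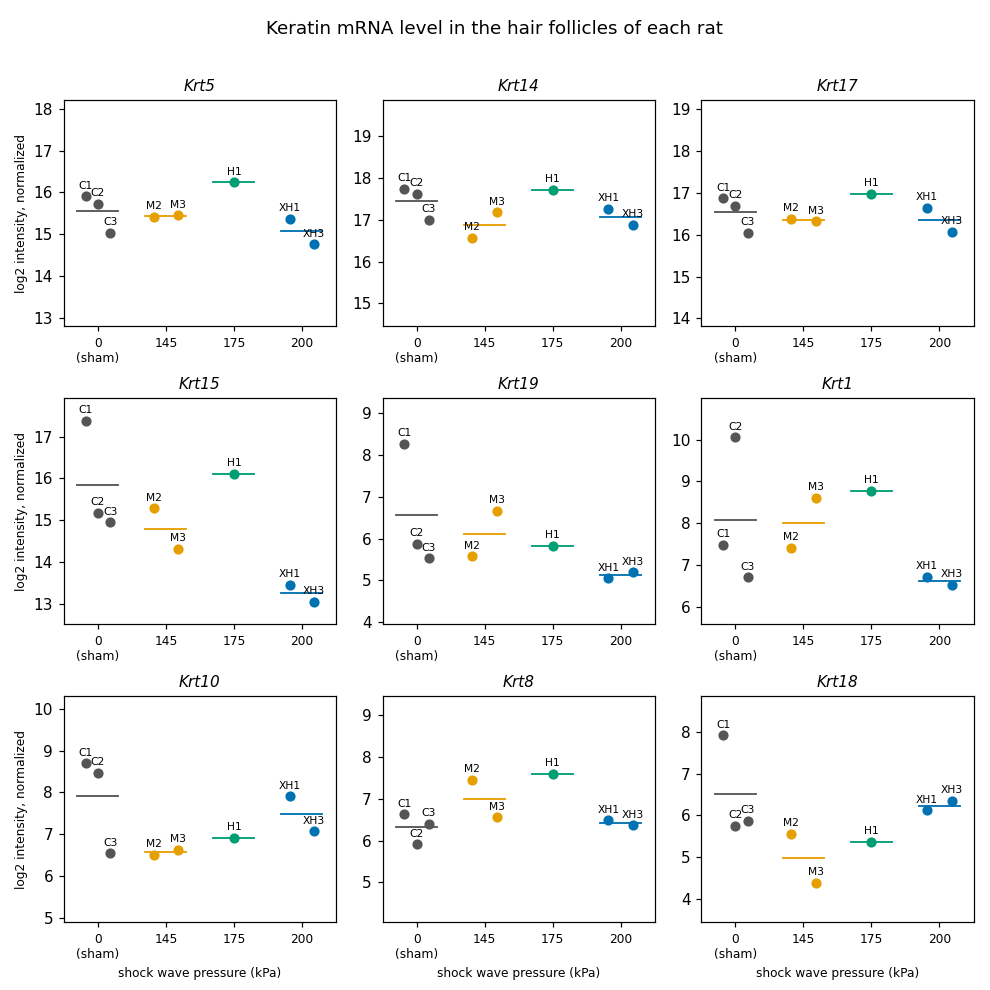
Normalized log2 intensity of each keratin in each rat (points, named by rat) against the shock wave pressure, with the mean at each pressure as a line. Every panel spans the same number of log2 units, so spreads can be compared between panels but levels cannot, and C1 stands above the other rats for Krt15, Krt18 and Krt19.

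The keratins differed widely in how much they varied between rats of the same group. For Krt1 the pooled within-group SD was 1.32 log2 units, larger than that of 97.5% of the 16874 probes that were well above background on all 8 arrays. Krt15 followed with an SD of 1.29 (97.3%), Krt19 with 1.005 (94.2%), Krt18 with 0.94 (93.3%) and Krt10 with 0.82 (90.6%). The SDs of Krt8 (0.52), Krt5 (0.50) and Krt14 (0.42) were above the median of 0.39 over those probes, and that of Krt17 (0.38) was just below it. Those probes were not matched to the keratins by intensity. With normexp the limma standard error of the blast difference fell from 0.87 to 0.69 for Krt1 and from 0.54 to 0.38 for Krt10. It fell from 0.62 to 0.31 for Krt18, from 0.67 to 0.39 for Krt19 and from 0.35 to 0.21 for Krt8. For Krt15 it was 0.85 and 0.84. Leaving out a single rat lowered the SD of Krt10 to 0.50 (without C3) and that of Krt19 to 0.58 (without C1), in an alternative chosen after the data were seen, so the order of the keratins by spread was not tested and depends on single rats. Spots of the same keratin on the same array differed far less, with a median SD between 0.020 (Krt17) and 0.13 (Krt18). Spots of the same array share their RNA, labelling and hybridization, and since each rat had 1 array, these cannot be told apart from the rats themselves.

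The sham control rat C1 was the highest rat for 5 of the 9 keratins, namely Krt10, Krt14, Krt15, Krt18 and Krt19, against 18.9% of the probes that were well above background on all 8 arrays. Its Krt15 level was 6.78-fold above the mean of the other rats, an excess larger than in 99.8% of the probes that were well above background. The excess was 6.02-fold for Krt19 (99.8%), 4.86-fold for Krt18 (99.7%), 2.93-fold for Krt10 (98.7%) and 1.49-fold for Krt14 (87.1%). The spread of Krt1, the widest of the keratins, did not come from C1, which lay below the mean of the other rats (log2 difference -0.35), while C2 was the highest. C1 was singled out after its values were seen. Its array also had the brightest median processed signal before normalization, 280.5, against 90.9 for C2, 105.8 for C3 and 93.3 to 179.9 for the blast rats. Across the 8 rats, Krt15 and log2 of this median signal had a Pearson r of 0.70 (permutation p = 0.0547, 0.310 after Benjamini-Hochberg adjustment over the 9 keratins) and a Spearman rho of 0.52 (permutation p = 0.197). Without the 2 arrays farthest from the median signal r was 0.18, so the relation rested on those arrays. For Krt18 r was 0.70 (permutation p = 0.0689, adjusted 0.310) and rho 0.36 (permutation p = 0.389), and r without the 2 farthest arrays was 0.29. Krt19 had an r of 0.62 (permutation p = 0.115, adjusted 0.344) and a rho of 0.071 (permutation p = 0.882). Its r turned to -0.43 without the 2 farthest arrays. Krt8 was highest in H1, M2 and C1, the rats with the 3 brightest arrays, with an r of 0.48 (permutation p = 0.214, adjusted 0.481), a rho of 0.69 (permutation p = 0.0694) and an r of 0.83 without the 2 farthest arrays. The keratins named so far had the highest r with the median signal. The r was 0.43 for Krt17, 0.39 for Krt5 and -0.26 for Krt1. Krt10 and Krt14, also highest in C1, had an r of 0.29 and 0.16 and a rho of 0.024 and 0.095. The part of signal brightness in the keratin levels was not tested beyond these correlations.

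The 8 arrays lay on 1 slide in 2 rows. Row 1 held C1, C2, M2 and H1, and row 2 held C3, M3, XH1 and XH3, so each row held both groups, with a single sham control rat in row 2. Krt8 was higher in blast rats by 1.25 within row 1 (unadjusted p = 0.00466, adjusted p = 1 in limma), where 2.23% of all probes had an unadjusted p under 0.05. Within row 2 the Krt8 difference was 0.062 (unadjusted p = 0.850, adjusted p = 0.99999 in limma), and 2.39% of all probes were under 0.05. With the row as a block it was 0.74, with an unadjusted p of 0.0444 and an adjusted p of 0.99996 in limma, and Krt8 was then the 1 keratin with an unadjusted p under 0.05, against 2.46% of all probes. Krt10 was lower in blast rats of row 1, with a difference of -1.88 (unadjusted p = 0.00689, adjusted p = 1 in limma), and higher in those of row 2, with 0.66 (unadjusted p = 0.252, adjusted p = 0.99999). Since row 2 has a single sham control rat, the p within row 2 and any test between the rows take the spread of that rat to be like that of the other rats. In such a test, chosen after the data were seen, the limma-adjusted p of the difference between the rows was 0.9999 for each of the 9 keratins, and 2 of them, Krt10 (unadjusted p = 0.0116) and Krt8 (unadjusted p = 0.0314), had an unadjusted p under 0.05, against 2.28% of all probes. The Krt15 difference was -0.58 in row 1 and -1.34 in row 2, and -0.91 with the row as a block (unadjusted p = 0.174, adjusted p = 0.99996 in limma). In row 1 the lower mean rested on C1, as M2 and H1 were both above C2. The Krt18 difference was -1.37 in row 1 and -0.25 in row 2, where the lower mean rested on M3, as XH1 and XH3 were both above C3. The differences of Krt1 (-0.67 and 0.58), Krt14 (-0.54 and 0.11), Krt17 (-0.099 and 0.31) and Krt19 (-1.37 and 0.11) were negative in row 1 and positive in row 2, as for Krt10. The signs of Krt5 and Krt17 were unstable, as both turned positive with the row as a block (0.078 and 0.076).

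Of the markers of blood, which can come along with a pulled follicle, the haemoglobin gene Hbb could be named, and its brighter probe had a log2 intensity of 10.21, 13.96 and 11.64 in C1, C2 and C3 and of 17.42, 13.34, 15.37, 13.31 and 14.43 in M2, M3, H1, XH1 and XH3. Hbb was highest in M2 and H1, the rats with the highest Krt8, but XH3, with the next highest Hbb, had a low Krt8. C1, with the lowest Hbb, had the highest Krt15, Krt18 and Krt19, but H1 and M2 followed C1 in Krt15. The part of blood in the keratin levels was not tested.

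The next comparison asked whether keratin levels followed the shock wave pressure among the 5 blast rats. The slope was positive for 4 keratins and negative for 5, with a median of -0.061 log2 units per 10 kPa. Krt18 had a slope of 0.23 per 10 kPa (standard error 0.082, unadjusted p = 0.0461 in limma), and Krt10 had one of 0.17 (standard error 0.060, unadjusted p = 0.0465). These were 2 of the 9 keratins at an unadjusted p under 0.05, against 2.84% of the 30236 probes tested. After adjustment over all probes 0 keratins and 0 probes passed in limma, with an adjusted p of 0.9999 for both keratins. The Krt18 slope was 0.14 without M3, whose Krt18 was not well above background (unadjusted p = 0.139, adjusted p = 0.99999 in limma), and 0.34 without M2 (unadjusted p = 0.00175, adjusted p = 0.296). Without XH1 the Krt10 slope was 0.094 (unadjusted p = 0.0895, adjusted p = 0.99999 in limma). With the sham control rats included at 0 kPa, both slopes turned to -0.041. Krt19 had a slope of -0.18 (95% interval -0.38 to 0.026), which was -0.094 without M3 and -0.28 without M2 (unadjusted p = 0.00201, adjusted p = 0.296 in limma). Without M2, 15.7% of all probes had an unadjusted p under 0.05 for the trend.

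Set side by side, both rats at 200 kPa were on the same side of both rats at 145 kPa for 7 of the 9 keratins, against 31.3% of all probes. Krt10 and Krt18 were higher at 200 kPa (17.7% of all probes), while Krt1, Krt5, Krt8, Krt15 and Krt19 were lower (13.6% of all probes). The rats overlapped for Krt14 and Krt17. Krt15 had means of 14.80 at 145 kPa and 13.25 at 200 kPa, which is 2.93-fold lower at 200 kPa (unadjusted p = 0.0338, adjusted p = 0.938 in limma), in a comparison where 4.22% of all probes had an unadjusted p under 0.05. Its level in H1, the rat at 175 kPa, was 16.10, above both pressures, so that the 3 pressures did not follow in order. The same held for Krt1, with 8.005, 8.78 and 6.62 at 145, 175 and 200 kPa, for Krt5, with 15.44, 16.24 and 15.07, and for Krt8, with 7.01, 7.59 and 6.42. Krt14 and Krt17 were also highest in H1 among the blast rats. The levels of Krt10, at 6.56, 6.90 and 7.48, of Krt18, at 4.97, 5.37 and 6.24, and of Krt19, at 6.12, 5.83 and 5.12, followed the order of pressure in their means. For Krt18 and Krt19 this rested on M3, since M2, the other rat at 145 kPa, lay above H1 for Krt18 and below H1 for Krt19, and Krt18 was not well above background in M3. Both rats at 200 kPa were in row 2 of the slide and those at 145 kPa were split between the rows. With the row as a block, an alternative chosen after the data were seen, 0 keratins had an unadjusted p under 0.05 for the trend, against 5.83% of all probes, and the slopes of Krt18 and Krt10 were 0.26 (unadjusted p = 0.0617, adjusted p = 0.807 in limma) and 0.15 (unadjusted p = 0.123, adjusted p = 0.831). In the same fit the slope of Krt15 went from -0.27 to -0.11 (unadjusted p = 0.393, adjusted p = 0.907 in limma) and that of Krt8 from -0.10 to -0.012.

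Since type I and type II keratins act in pairs, their levels were next compared across the 8 rats. Among all 36 pairs of the 9 keratins, r was positive for 30 and negative for 6, and 5 pairs had an unadjusted permutation p under 0.05. How often pairs of other probes did so was not counted. With levels taken as deviations from the group means, r was highest for Krt5 and Krt17 (0.93) and next for Krt8 and Krt15 (0.86). For Krt8 and Krt15 the r of the levels themselves was 0.36, and this change was not tested. Krt5 and Krt17 had the highest r, with a Pearson r of 0.93 (exact permutation p = 0.000967, 0.0348 after Benjamini-Hochberg adjustment over the 36 pairs) and a Spearman rho of 0.88 (exact permutation p = 0.00724, adjusted 0.130). Without H1 and XH3, the rats farthest from the median of Krt5, r was 0.89. This was the 1 pair with an adjusted p under 0.05, and with 75th percentile scaling its adjusted p was 0.0741 at an r of 0.93. The adjusted permutation p was also above 0.05 when any of C1, C2, C3, H1, XH3 or M3 was left out, between 0.0607 (without M3) and 0.186 (without XH3). By rho, Krt1 and Krt5 were as close, with the same 0.88 (exact permutation p = 0.00724, adjusted 0.130), while their r was 0.65 (exact permutation p = 0.0832, adjusted 0.375) and 0.57 without C2 and H1. The next highest r was that of Krt14 and Krt17, which are both type I and so not partners, at 0.81 (exact permutation p = 0.0188, adjusted 0.213), with a rho of 0.81 (exact permutation p = 0.0218, adjusted 0.196) and an r of 0.94 without M2 and C1. The classical pair Krt5 and Krt14 had an r of 0.77 (exact permutation p = 0.0273, adjusted 0.213) and a rho of 0.79 (exact permutation p = 0.0279, adjusted 0.201), with an r of 0.70 without H1 and XH3. M2, which had the lowest Krt14 level but a middle Krt5 level, was the rat whose removal moved r most. Without M2 r was 0.95 (adjusted permutation p = 0.0286), which follows from leaving out the exception, so it is no support. Krt5 and Krt15 had an r of 0.76 (exact permutation p = 0.0296, adjusted 0.213) and a rho of 0.81 (exact permutation p = 0.0218, adjusted 0.196), with an r of 0.63 without H1 and XH3.

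The suprabasal and the simple epithelial pairs had a lower r in these rats, and whether their r differed from that of the pairs above was not tested. For Krt1 and Krt10 r was 0.26 (exact permutation p = 0.520) and rho was 0.26 (exact permutation p = 0.536), and r was -0.13 without C2 and H1. Krt8 and Krt18 had an r of -0.19 (exact permutation p = 0.639) and a rho of -0.36 (exact permutation p = 0.389), while r was 0.21 without M2 and H1. For Krt8 and Krt19 r was -0.0031 (exact permutation p = 0.995) and rho was 0.29 (exact permutation p = 0.501), and r was 0.42 without M2 and H1. The adjusted p of these pairs lay between 0.646 and 0.995 for r. The bulge keratins Krt15 and Krt19, both type I, had an r of 0.76 (exact permutation p = 0.0282, adjusted 0.213) and a rho of 0.67 (exact permutation p = 0.0831, adjusted 0.272). Without C1 and XH3 this r was 0.22, so the relation rested on those rats.

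The balance of a pair within a rat was taken as the log2 ratio of the type II to the type I keratin on the same array, which needs no normalization between arrays. This measure was chosen after the data were seen. It still depends on how the background is corrected. With normexp the blast differences of Krt8, Krt18 and Krt19 were 0.34, -0.50 and -0.53, against 0.57, -0.96 and -0.90 in the main setting. All of these are smaller in size, and the ratios were not taken again with normexp. The ratio of Krt8 to Krt19 was -1.65, 0.030 and 0.87 in C1, C2 and C3 and 1.92, -0.11, 1.72, 1.45 and 1.15 in M2, M3, H1, XH1 and XH3. Of the blast rats, 4 of 5 were above all sham control rats and M3 was the exception. The mean difference was 1.48, or 2.78-fold (exact permutation p = 0.0893, 0.214 after adjustment over the 6 ratios). Without C1 it was 0.78 (exact permutation p = 0.286). Without M3 it was 1.81 (exact permutation p = 0.0286), which is the smallest p that 4 against 3 rats allow and follows from leaving out the exception, so it is no support. It was 2.63 within row 1 of the slide and -0.040 within row 2, where M3 was below C3 and XH1 and XH3 were above.

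For Krt8 over Krt18, the log2 ratio was -1.30, 0.16 and 0.52 in C1, C2 and C3 and 1.95, 2.11, 2.15, 0.36 and 0.0099 in M2, M3, H1, XH1 and XH3. M2, M3 and H1, the rats below 200 kPa, were above all sham control rats, and XH1 and XH3 lay among them. The ratio of M3 is uncertain, since its Krt18 was not well above background. The mean difference of 1.52 (exact permutation p = 0.107, adjusted 0.214) was 2.62 in row 1 and 0.31 in row 2, and 0.98 without C1 and 1.33 without M3. In row 2 the higher mean rested on M3, as XH1 and XH3 were both below C3. Krt5 over Krt15 was -1.41, 0.53 and 0.10 in C1, C2 and C3 and 0.11, 1.12, 0.14, 1.91 and 1.75 in M2, M3, H1, XH1 and XH3. M3, XH1 and XH3 were above all sham control rats, with a mean difference of 1.27 (exact permutation p = 0.107, adjusted 0.214) that was 0.69 without C1. The ratio of Krt5 to Krt17 varied least of the 6, lying between -1.11 and -0.94 in the sham control rats and between -1.36 and -0.74 in the blast rats (mean difference -0.025, exact permutation p = 0.821). Krt5 over Krt14 differed by 0.25 (exact permutation p = 0.411), with M2 at -1.12 as the highest rat, and by 0.10 without M2. Krt1 over Krt10 differed by 0.41 (exact permutation p = 0.732) and ranged from -1.24 in XH1 to 1.92 in M3. The direction of the last difference depended on single rats, from -0.28 to 1.11 when each rat was left out in turn.

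**Figure D3:**
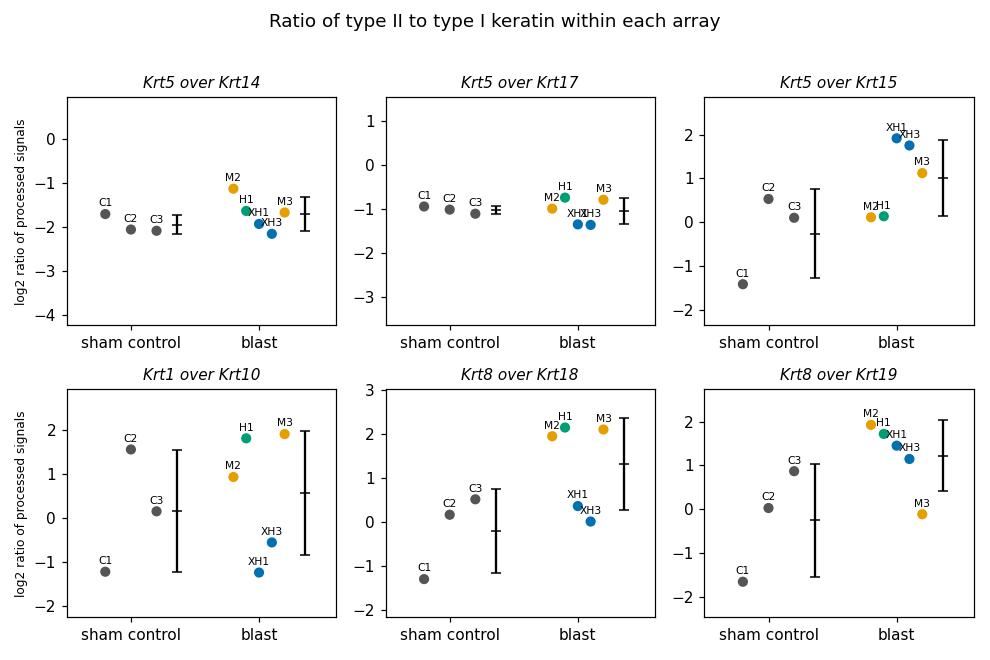
Log2 ratio of a type II keratin to a type I keratin within each array, from processed signals without normalization, in 3 sham control rats and 5 blast rats (points, coloured by pressure as in the plot of keratin levels), with the mean and SD of each group (bars). The height of a ratio depends on the probes and only its differences between rats can be read, and for Krt8 over Krt19 4 of the 5 blast rats lie above all sham control rats.

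The remaining probes were searched for levels that followed the keratins over the 8 rats. The candidates were 12243 probes with an accession that were well above background on all 8 arrays. The probe with the highest Pearson r with the mean of Krt5 and Krt14 was NM_001037197, with an r of 0.97 and a Spearman rho of 0.93. For the mean of Krt1 and Krt10 it was NM_001012190, with an r of 0.96 and a rho of 0.88. These had the highest r of many probes and are given as a description. By rho other probes were higher, at 0.98 for Krt5 and Krt14 and at 0.95 for Krt1 and Krt10. The array files do not pair the accessions with gene names. In the RefSeq gene table of the black rat (assembly Rrattus_CSIRO_v1), 6 of the 9 keratin symbols were found. There the type II genes Krt1, Krt5 and Krt8 share a chromosome with the type I gene Krt18, and the type I genes Krt10 and Krt19 share another.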

How the data were processed

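Arrays of 3 sham control and 5 blast rats were used, 1 per rat, with groups and pressures from the deposited labels. For each spot, the authors deposited a background-corrected intensity, made with Agilent Feature Extraction 10.7.1.1 per the file headers. The authors also deposited a table of log2 values, whose columns correlated with log2 of the intensities (lowest r 0.9986) and, once sorted, held the same 62976 values (largest gap 0, median 6.695), which is what quantile normalization gives.

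Control spots and outlier spots were dropped, log2 intensities of replicate spots were averaged, intensities were quantile normalized over the arrays, and those under 3 were set to 3. Quantile normalization and a limit of 3 are named in the study's methods, which applied the limit to single spots first. Here spots were averaged first and the limit came last, and 0 processed spot signals were under 3. Groups were compared by lmFit and eBayes of limma 3.58.1 (R 4.3.3) over 30366 probes with Benjamini-Hochberg adjustment, and by an exact two-sided permutation test (56 ways of grouping the rats). Intervals are 95% intervals from limma. The trend was a limma slope among blast rats. Correlations used all pairings of the rats and Python 3.11.15. A spot was taken as well above background where the Agilent software marked it so. The keratins were saturated on 0 arrays, and all 9 were tested. The number of arrays limits the precision. The steps were tested on simulated data.

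The members and lists were chosen with earlier results of these data known. The text names all 9 keratins whatever their values, Hbb through the study's primer table, and the probes most correlated with Krt5 and Krt14 and with Krt1 and Krt10, for which 1 accession each is given of the 3 the rule takes. Probes carry accessions without symbols, and 0 accessions matched the gene table of the black rat. Lists of other keratins, hair shaft keratins, junction, cornified envelope and transcription factor genes and of markers of Merkel cells, sebocytes, melanocytes, fibroblasts, endothelium and muscle were therefore not analysed here.

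Alternatives were scaling to the 75th percentile, no limit or a limit of 8, a filter requiring 3 arrays well above background, outlier spots kept, normexp on the median signal (offset 50), the methods' analysis of variance, an intensity trend with robust eBayes, array quality weights, the title number or the slide row as a block, the deposited log2 values, and each rat left out. Chosen after the data were seen were quantile normalization of log2 values, the uncorrected signal, the row as a block for the trend, the test between rows and the ratios within arrays.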

Additional observations from a re-analysis of the deposited data

How the results depend on the processing

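Among the alternative values of the 9 blast differences, 198 kept their direction and stayed past or short of the adjusted threshold, and 18 turned, in limma. Some settings could not turn a direction, since they left every keratin difference at the same value. These were no limit, a limit of 8, the filter on background, the analysis of variance and the intensity trend with robust eBayes. Scaling to the 75th percentile, which moved the median of all probes by 0.059, turned Krt5 to 0.033 and Krt17 to 0.059. Array quality weights turned Krt17 to 0.11 and moved Krt10 to -0.0045, Krt18 to -0.17, Krt1 to -0.22, Krt5 to -0.051, Krt14 to -0.20, Krt19 to -0.54 and Krt8 to 0.37. With normexp Krt18 was -0.50, Krt19 -0.53 and Krt8 0.34, and with the uncorrected signal Krt18 was -0.60. With the slide row as a block Krt5 was 0.078 and Krt17 0.076, and 1 keratin (Krt8) had an unadjusted p under 0.05. Within row 1 Krt5 was 0.017, and 2 keratins (Krt8 and Krt10) were under 0.05. Within row 2, which has 1 sham control rat taken to vary like the others, Krt1 was 0.58, Krt5 0.16, Krt10 0.66, Krt14 0.11, Krt17 0.31 and Krt19 0.11, and 7 of all probes passed the adjusted threshold. Over all probes, the count at an unadjusted p under 0.05 was 850, 413 with the filter on background, 2246 with array weights, 846 with the title number as replicate block (0 adjusted) and 657 to 1649 with each rat left out (1649 without H1), with 0 to 3 adjusted. The block changed no keratin's direction. Correlations between a sham control and a blast rat were -0.58 to 0.51 for the same number and -0.66 to 0.61 for different numbers. These values cannot decide whether the numbers pair the rats. With each rat left out, Krt1 ranged from -1.16 to 0.51, Krt5 from -0.36 to 0.072, Krt17 from -0.30 to 0.12, Krt10 from -1.58 to -0.51, Krt15 from -1.84 to -0.62, Krt18 from -1.33 to -0.26, Krt19 from -1.41 to -0.041, Krt14 from -0.57 to -0.19 and Krt8 from 0.37 to 0.73, and 0 to 1 keratins (Krt10 without C3) were under 0.05. For the slope with pressure, all 8 rats turned Krt8 to 0.026, Krt10 to -0.041, Krt14 to -0.016, Krt17 to -0.0025 and Krt18 to -0.041, with 0 keratins under 0.05. The slope of Krt17 was -0.023 with 75th percentile scaling (1 keratin under 0.05, Krt18) and -0.00081 with the deposited values. The row as a block left 0 keratins and 1762 probes against 860, and 200 kPa against 145 kPa 1 keratin (Krt15) and 1277 probes. With each rat left out the slopes of Krt5 (-0.095 to 0.022), Krt14 (-0.035 to 0.097) and Krt17 (-0.018 to 0.074) changed sign, 0 to 2 keratins were under 0.05 (Krt18 and Krt19 without M2, Krt15 without H1, Krt10 without XH3, 0 without XH1 or M3), and 409 (without XH1) to 4744 (without M2) of all probes. Leaving out each rat gave an r of 0.90 to 0.97 for Krt5 and Krt17, whose adjusted permutation p stayed under 0.05 without M2 or XH1 and not without any other rat, and was 0.0741 with 75th percentile scaling (r 0.93). It gave 0.70 to 0.95 for Krt5 and Krt14, 0.64 to 0.82 for Krt5 and Krt15, -0.19 to 0.41 for Krt1 and Krt10, -0.30 to -0.057 for Krt8 and Krt18 and -0.078 to 0.11 for Krt8 and Krt19. The ratio differences ranged from 0.78 to 2.04 for Krt8 over Krt19, 0.98 to 1.89 for Krt8 over Krt18, 0.69 to 1.66 for Krt5 over Krt15, 0.10 to 0.37 for Krt5 over Krt14, -0.10 to 0.054 for Krt5 over Krt17 and -0.28 to 1.11 for Krt1 over Krt10. What caused these differences between settings was not tested. The probe with the lowest p and every probe on its own were not run, since each keratin has 1 probe. Krt18 in M3, not well above background, has a less certain level than the others.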
